A study of Drosophila melanogaster with 12 samples.

Results

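Transcript levels of double mated females were compared with those of virgin females on 8 of the 12 arrays of the series, 4 arrays in each group. Double mated females had mated on days 12 and 13 after the eggs were laid out, on each occasion with a tester male, and were flash frozen 6 hours after their last mating. Virgin females were kept without males, and the single mated females, whose 4 arrays are used only to estimate the spread and for the test against 1 mating, mated once. All females came from the outbred Drosophila melanogaster population LHM, were collected as virgins on day 9 and were briefly anaesthetized with CO2, whether or not a male had been with them. The tester males were the offspring of a cross between a pair of inbred lines derived from LHM and were not virgin. Each array held the RNA of 8 whole flies, pooled, and the 4 pools of a group were separate extractions, so a change cannot be assigned to a tissue, and fewer cells of a type and less RNA per cell cannot be told apart. Judging by its title, the study asked what reproduction and mating cost a female. The deposited description of day 13 breaks off before it gives the single mating, so the day of that mating is not given here.

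A mating transfers sperm and seminal fluid proteins, among them the sex peptide, which acts through a receptor in the female to raise egg laying and feeding and to lower her readiness to mate again. Juvenile hormone, made in the corpora allata, and ecdysteroids, made in the adult mainly in the ovary, drive yolk uptake and the passage of egg chambers through late oogenesis. Mating is also known to raise transcripts of antimicrobial peptides, which the Imd and Toll pathways control in the fat body and in epithelia.

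The labels were set against transcripts that mark females, their ovaries and their mates. Yp1, Yp2 and Yp3, the yolk proteins of female fat body and follicle cells, had values of 14.74 or above on each of the 8 arrays. The 27 measured transcripts of the male accessory gland averaged 4.28, 4.26, 4.28 and 4.39 log2 units in the double mated arrays and 4.25, 4.27, 4.3 and 4.29 in the virgin arrays, each below the lower quartile of all probe sets on its own array, which was 4.38 to 4.42. SP, the sex peptide itself, had 3.95, 4.03, 3.98 and 4.17 in the double mated arrays and 3.98, 3.98, 4.09 and 4.06 in the virgin arrays. Its change was 0.01 log2 units with a limma adjusted p of 0.966, and that of Acp26Aa, which encodes ovulin, was -0.02 with an adjusted p of 0.933. None of the 26 measured testis and sperm transcripts passed the test, with 2 of them lower at an unadjusted p under 0.05. In the accessory gland list 1 of 27 rose, Sems, a seminal serine protease, at 0.26 (adjusted p = 0.0242), a call that ended without double mated replicate 3 or 4 or virgin replicate 1, 2 or 4 (adjusted p = 0.0595 without double mated replicate 4).

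Of 11982 genes, 4253 (35.5%) passed the test, with 1843 (15.4%) higher and 2410 (20.1%) lower in double mated than in virgin females. The values are log2 RMA summaries, the test is limma's moderated test on all 12 arrays, and a gene was called changed, written here as rose or fell, at a Benjamini-Hochberg adjusted p under 0.05 over all 18769 probe sets. On the level of probe sets 5268 (28.1%) changed, 2314 upward and 2954 downward, and 43.9% of the calls were upward. That split depended on the scaling: with each array centred on its median 1777 probe sets were higher and 4326 lower (29.1% higher), and after cyclic loess 2682 were higher and 2341 lower (53.4% higher). Most changes were small, with a median size of 0.38 log2 units among the called genes, and the median of all genes was -0.025. A change of more than 2-fold was called for 122 genes upward and 17 downward. The 4 double mated arrays all lay above the 4 virgin arrays for 1710 genes (14.3%) and all below them for 2465 (20.6%).

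**Figure D1:**
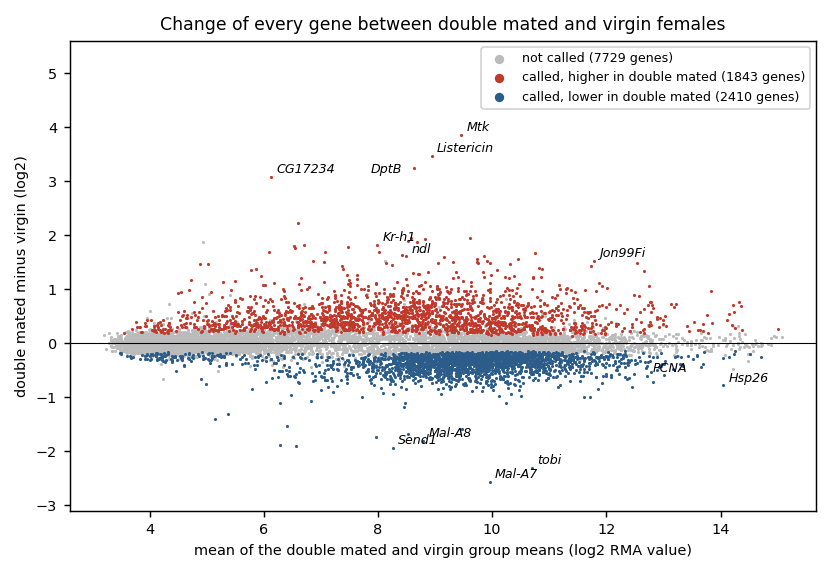
Each point is 1 gene, placed by the mean of its double mated and virgin group means (x axis, log2 RMA value) and by its change, double mated minus virgin (y axis, log2). Red points rose and blue points fell at an adjusted p under 0.05. Changes of more than 2 log2 units were called for 5 genes upward, with Mtk, Listericin and DptB at the top, and for 2 downward, Mal-A7 and tobi.

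Within the double mated group, replicate 4 stood apart. On the first principal component of the 12 arrays (46.5% of the variance) the double mated arrays lay at 18.31, 23.36, 25.27 and 9.56, and the virgin arrays lay between -23.99 and -18.05. Replicate 4 thus lay nearer to the single mated arrays, whose highest was 8.78, than to the other double mated arrays. Without it 2081 genes (17.4%) rose and 2757 (23%) fell, and of the 162 genes named by the rule given with the methods only Sems lost its call.

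**Figure D2:**
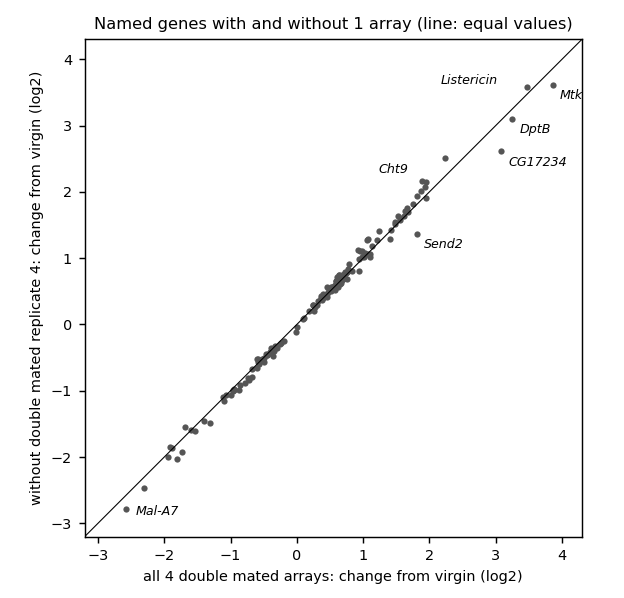
Each point is 1 of the 162 named genes, placed by its change from virgin with all 4 double mated arrays (x axis, log2) and without double mated replicate 4 (y axis, log2). Points lie close to the line of equal values. CG17234 and Send2 lie below it, at 2.61 and 1.37 without the array, against 3.08 and 1.81 with it.

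The largest increases were in antimicrobial peptides. Of the 14 measured members of the list (24 in all), 8 rose and none fell, with a median of 0.38; 0 of the 14 were lower at an unadjusted p under 0.05. Mtk, which encodes the antimicrobial peptide metchnikowin, had 12.55, 11.29, 9.61 and 12.09 log2 units in double mated replicates 1 to 4 and 7.04, 7.33, 7.39 and 8.34 in virgin replicates 1 to 4. All double mated arrays were above all virgin ones, but they were spread over almost 3 units, replicate 3 being the lowest, and the virgin array of replicate 4 was about 1 unit above the other virgin arrays. The change was 3.86 (SE 0.64), or 14.5-fold with a 95% interval of 5.57 to 37.7 (adjusted p = 0.000444). Listericin, an antibacterial peptide gene, had 10.74, 10.68, 10.93 and 10.35 in the double mated arrays and 7.35, 7.1, 7.21 and 7.16 in the virgin arrays. Here both groups were tight, and the change of 3.47 (SE 0.12, 11.1-fold, adjusted p = 2.94e-10) had the smallest p of the genes named. DptB, a diptericin active against Gram-negative bacteria, had 11.3, 10.67, 8.35 and 10.71 in the double mated arrays and 7.04, 6.84, 7.01 and 7.13 in the virgin arrays. Replicate 3 was again the lowest double mated array, still above every virgin array, and the fold was 9.53 (4.79 to 19).

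Def, the insect defensin gene, had 9.31, 9.28, 9.33 and 8.98 in the double mated arrays and 7.6, 7.85, 7.6 and 7.34 in the virgin arrays, a 3.1-fold increase (adjusted p = 7.67e-07). AttD, an attacin, was much dimmer, at 5.08, 5.76, 5.38 and 5.96 in the double mated arrays and 4.59, 4.69, 4.66 and 4.49 in the virgin arrays. The 4 double mated arrays were again the 4 highest for both genes. Drs, the antifungal peptide drosomycin and a classic target of Toll, was already bright in virgins and rose by 0.32 (1.25-fold, adjusted p = 0.00488). CecB at 0.44 and Drsl5 at 0.45, named after their values were seen, completed the 8. The other 6 members, edin and Drsl1, Drsl2, Drsl3, Drsl4 and Drsl6, had changes between -0.13 and 0.21 and did not pass.

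Bomanins, short secreted peptides that act downstream of Toll in resistance to infection, rose in 6 of 8 measured members, with a median of 0.55. BomS5 had 11.02, 11.73, 10.97 and 11.21 in the double mated arrays and 9.75, 9.82, 9.62 and 9.52 in the virgin arrays (2.94-fold, adjusted p = 4.25e-05). BomBc3 had 11.19, 11.78, 11.29 and 11.83 in the double mated arrays and 10.08, 10.19, 10.13 and 10.12 in the virgin arrays (2.63-fold, adjusted p = 6.93e-05). In both, every double mated array was more than 1 unit above the mean of the virgin arrays. BomS2 rose 2.16-fold and BomT2 1.5-fold, while BomS6 at -0.14 and BomBc2 at -0.03, chosen after their values were seen, did not pass.

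**Figure D3:**
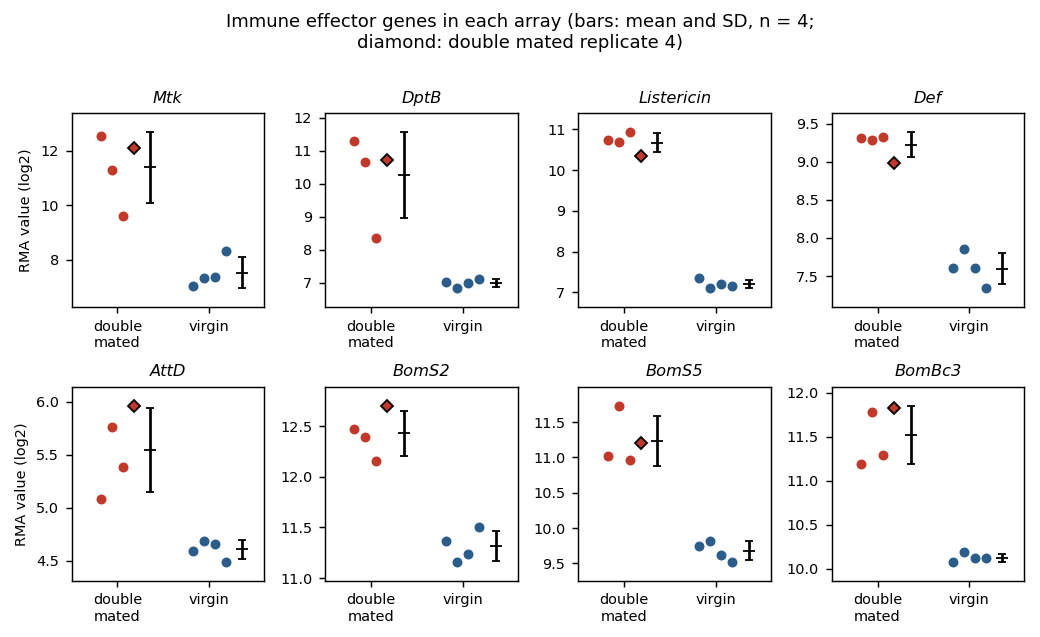
RMA values (y axes, log2) of 8 immune effector genes in the 4 double mated arrays (red, left) and the 4 virgin arrays (blue, right), with the mean and SD beside each group. The groups do not overlap in any of the 8 panels. The diamond, double mated replicate 4, lies within the range of its group for Mtk and is the lowest array of its group for Listericin and Def.

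The receptors and signal transducers above these peptides included genes called in each direction. PGRP-SB1, a secreted amidase that cleaves peptidoglycan, had 11.29, 10.64, 9.72 and 10.37 in the double mated arrays and 8.79, 9.28, 8.83 and 9.2 in the virgin arrays (2.79-fold, adjusted p = 0.0019). PGRP-LB, an amidase that dampens Imd signalling, was at 0.36 with 1 array of each group at 7.31, and its call (adjusted p = 0.0378) ended without double mated replicates 1 or 2 or virgin replicates 3 or 4, which left 1 of the 7 measured recognition proteins called. In the Imd pathway 2 of 14 measured members rose and 4 fell, beside 15.4% higher and 20.1% lower among all genes. Those that fell were IKKbeta and key, the catalytic and regulatory parts of the kinase complex, at -0.5 and -0.39, the adaptor Fadd at -0.4, and akirin at -0.23, a nuclear cofactor named after its value was seen. The ubiquitin-conjugating enzyme ben rose by 0.65, and Rel, the NF-kappaB factor of the pathway, named after its value was seen, by 0.2, and the count of 2 fell to 1 without double mated replicate 1 or 3 or any 1 of the virgin arrays. The pathway's median of -0.05 turned to 0.04 after cyclic loess.

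Of 16 Toll pathway members 3 rose and 3 fell, near the shares of all genes (15.4% higher and 20.1% lower), with a median of 0. nec, a serpin that restrains the cascade upstream of Toll, rose by 0.47 (adjusted p = 0.000126). Pli, the Pellino ubiquitin ligase, rose by 0.3, and spirit, a clip protease named after its value was seen, by 0.2. The ligand spz fell by 0.3 on the log2 scale, its kinase pll by 0.31, and the inhibitor cact, named after its value was seen, by 0.24. Without double mated replicate 4 the number of Toll members that fell was 6. Of 10 melanization genes 3 rose: Spn28Dc, a serpin that limits the reaction, by 0.51, and the proteases Sp7 and Hayan by 0.25 and 0.25, the call of Hayan ending without double mated replicate 2 or 3 or virgin replicate 3 or 4. Tep4, a thioester protein of the hemolymph, rose by 0.41 and was the one called gene of 10 in the Turandot and JAK/STAT list. That count was 2 without double mated replicate 3 or 4, and without replicate 4 another member fell.

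Basement membrane genes, which hemocytes and fat body express, rose in large part. Of 18 genes in the hemocyte and basement membrane list, 14 rose and none fell (0 lower also at an unadjusted p under 0.05), with a median of 0.61. LanB2, a laminin chain, had 9.44, 9.62, 9.63 and 9.44 in the double mated arrays and 8.43, 8.76, 8.47 and 8.43 in the virgin arrays (2.01-fold, adjusted p = 7.42e-06). LanB1, another laminin chain, rose 1.7-fold, vkg, a collagen IV chain, 1.7-fold and Ppn, papilin, 1.61-fold, each with every double mated array above every virgin array. The list's hemocyte markers included some that did not pass. Among genes chosen after their values were seen, NimB2 rose by 0.78 and NimC1 by 0.24, but Hml, at -0.04, and eater, at 0.05, did not pass.

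The eggshell is made by the follicle cells of the ovary. The vitelline membrane is laid down before the chorion, and 7 of its 9 measured genes rose, with a median of 1.32, the highest of the 40 lists. ndl, the Nudel protease that follicle cells secrete onto the egg, had 9.29, 9.32, 9.32 and 9.22 in the double mated arrays and 7.56, 7.95, 7.54 and 7.66 in the virgin arrays. The double mated arrays lay within 0.1 log2 unit of one another, and the change was 3.05-fold (95% interval 2.69 to 3.46, adjusted p = 7.64e-08). Vm32E, a vitelline membrane protein, had 12.29, 11.38, 11.36 and 11.31 in the double mated arrays, replicate 1 being the highest, and 9.96, 10.14, 9.7 and 9.9 in the virgin arrays. psd, the vitelline membrane gene palisade, rose 2.95-fold and dec, defective chorion 1, 2.68-fold, with no overlap of the groups.

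The chorion is the outer layer of the eggshell. Of 13 chorion genes measured, 5 rose and 1 fell, beside 15.4% higher and 20.1% lower among all genes. The list's median was 0.32, and for none of the 5 that rose were the groups apart. yellow-g2, which takes part in eggshell hardening, had 12.02, 12.09, 11.67 and 11.06 in the double mated arrays and 10.8, 11.15, 10.82 and 9.77 in the virgin arrays (adjusted p = 0.0198). That call ended without double mated replicate 1 or 2 or virgin replicate 4. Virgin replicate 4 was the lowest array by more than 1 unit, and double mated replicate 4 lay below virgin replicate 2. Cp7Fc, a chorion protein, and Muc4B, a mucin, had changes of 0.93 and 1.06 and also had double mated replicate 4 below virgin replicate 2, and yellow-g and Mur11Da, named after their values were seen, rose by 0.99 and 0.7. The number of chorion genes that rose was 1 without double mated replicate 1, 2 without replicate 2, 3 without replicate 3 and 8 without replicate 4, and on the virgin side it was 8 without replicate 2 and 1 without replicate 4. The major chorion genes Cp15, Cp16, Cp18 and Cp19, chosen after their values were seen, had changes between 0.04 and 0.18 and did not pass. Pxt, a peroxidase of the ovary, fell by 0.35 on the log2 scale (adjusted p = 0.00196).

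Of the 3 yolk proteins, Yp2 rose, at 15.11, 15.11, 15.15 and 15.19 in the double mated arrays and 14.9, 14.95, 14.74 and 14.87 in the virgin arrays (adjusted p = 0.00232). Yp1 and Yp3 were at 0.11 and 0.09 with adjusted p-values of 0.133 and 0.205, and their double mated arrays were all above the virgin arrays. Lipid carriers and their receptors were among the genes that rose. Apoltp, the lipid transfer particle of the hemolymph, had 10.85, 11.04, 11.01 and 10.69 in the double mated arrays and 9.67, 9.96, 9.41 and 9.71 in the virgin arrays (2.31-fold, adjusted p = 7.42e-06). LpR2, a lipophorin receptor of the ovary, had 8.99, 9.08, 9.04 and 8.83 in the double mated arrays and 8.17, 8.34, 8.25 and 8.32 in the virgin arrays (1.64-fold). In all, 6 of the 11 genes of yolk and lipid transport rose and none fell, 0 of them at an unadjusted p under 0.05, and yl, the yolk protein receptor, chosen after its value was seen, was at -0.12 and did not pass.

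Genes of DNA replication and of the proteasome, which breaks down proteins, fell. Of 14 replication genes 12 fell and none rose, with a median of -0.54, and 0 were higher at an unadjusted p under 0.05. Orc4, a subunit of the origin recognition complex, had 9.37, 9.28, 9.17 and 9.71 in the double mated arrays and 10.25, 10.19, 10.31 and 10.29 in the virgin arrays (0.544 times the virgin level, adjusted p = 6.13e-05). Replicate 4 was the highest of the double mated arrays and still lay below all virgin arrays. PCNA, the sliding clamp of the replication fork, had 12.44, 12.3, 12.32 and 12.6 in the double mated arrays and 13.01, 12.95, 13.04 and 13.04 in the virgin arrays, and Mcm3, of the replicative helicase, was at 0.623 times its virgin level. Without double mated replicate 4 all 14 fell, with a median of -0.66.

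In the germline and maternal list, 5 of 25 rose and 10 fell, beside 15.4% higher and 20.1% lower among all genes. png and plu, subunits of the kinase that starts the embryonic cell cycles, fell by 0.59 and 0.45 on the log2 scale, and stwl, needed in the female germline, by 0.68. orb, which activates translation of maternal RNAs in the oocyte, rose by 0.58 (adjusted p = 0.000194), as did, named after their values were seen, aub by 0.39, egl by 0.31, otu by 0.28 and tud by 0.27. The list's median of -0.1 was 0 after cyclic loess. Of 26 proteasome subunits 22 fell and none rose, with a median of -0.31 and 0 higher at an unadjusted p under 0.05. Rpn12, of the regulatory lid, had 11.85, 11.95, 11.95 and 11.98 in the double mated arrays and 12.48, 12.51, 12.51 and 12.52 in the virgin arrays (adjusted p = 1.06e-05). The virgin arrays of Rpn12 spanned 0.04 units, and all double mated arrays were lower by more than 10 times that span.

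Of 69 mitochondrial ribosomal proteins 25 fell and none rose (0 at an unadjusted p under 0.05), with a median of -0.12, and mRpL3 fell by 0.5 on the log2 scale (adjusted p = 1.77e-05). The number that fell was 8 after cyclic loess and 44 with median-centred arrays. Cytosolic ribosomal proteins gave 1 call in 34, RpS5b, the germline paralog of its subunit, at -0.2 (adjusted p = 0.0316). Oxidative phosphorylation gave 1 in 69, COX7B at 0.19 (adjusted p = 0.0321). This is the brightest of 3 probe sets, of which 1 was called, and the lowest was at 0.02. The call of RpS5b ended without any array but virgin replicate 2 or double mated replicate 4, and that of COX7B ended without double mated replicate 2 or 3 or virgin replicate 2, 3 or 4.

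Early zygotic genes, which the embryo transcribes after fertilization and adult tissues can also express, rose in 8 of 19 measured members, with a median of 0.26. The share of all genes that rose was 15.4%. hry, the segmentation gene hairy, had 10.77, 10.83, 10.85 and 10.7 in the double mated arrays and 9.84, 9.66, 9.84 and 9.87 in the virgin arrays (1.98-fold, adjusted p = 1.02e-05). odd, dpp and bnk rose by 0.52, 0.51 and 0.37, and bnk, needed when the embryo forms cells, stayed between 3.7 and 4.31 on all 8 arrays, at the dim end of the array. odd and dpp, like hry, were measured well above background in virgins, at 6.92 to 7.19 and 6.3 to 6.59. The list's mean level was 5.96, 6.05, 6.14 and 6.32 in the double mated arrays and 5.86, 5.85, 5.86 and 5.91 in the virgin arrays, replicate 4 being the highest, and their part in the other results was not tested. Leaving out double mated replicates 3 or 4 or virgin replicates 1, 2 or 4 left 4 or 5 members that rose. On leaving out each double mated or virgin array in turn, that count ran from 4 to 12. Of 2 members that fell, named after their values were seen, slam was at -0.51 and hb at -0.35.

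Juvenile hormone, which promotes egg maturation, is made, sensed and broken down by 9 measured genes, of which 3 rose and 1 fell. The shares of all genes were 15.4% higher and 20.1% lower. Kr-h1, the transcription factor that the hormone induces, had 8.91, 9.18, 8.98 and 8.51 in the double mated arrays and 6.89, 7.17, 6.93 and 7.31 in the virgin arrays (3.52-fold, 95% interval 2.92 to 4.24, adjusted p = 1.61e-06). jhamt, the methyltransferase of the last steps of synthesis, had 6.66, 6.81, 6.76 and 6.07 in the double mated arrays and 5.27, 5.24, 5.37 and 5.44 in the virgin arrays (2.37-fold, adjusted p = 0.000101). In both genes double mated replicate 4 was the lowest of its group and still above every virgin array. Jhe, an esterase that breaks the hormone down, rose by 0.51 and Fpps, of the mevalonate route to its precursor, fell by 0.25 on the log2 scale. The receptors Met and gce, chosen after their values were seen, were at -0.07 and -0.02 and did not pass.

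Of 18 ecdysone genes 5 rose and 2 fell, beside 15.4% higher and 20.1% lower among all genes. br, an early ecdysone response factor with a role in the follicle cells, had 6.92, 6.54, 6.63 and 6.82 in the double mated arrays and 5.86, 5.62, 5.47 and 5.53 in the virgin arrays (2.15-fold, adjusted p = 5.91e-06). This is the brightest of 5 probe sets, whose changes ran from -0.13 to 1.11 with 2 called, and their mean gave 0.26. spo, a P450 enzyme of ecdysteroid synthesis, had 6.23, 6.88, 6.52 and 6.59 in the double mated arrays and 5.37, 5.71, 5.4 and 5.46 in the virgin arrays (2.1-fold). Both values were higher on every double mated array by at least 0.5 units. phtm, of the same synthetic route, rose by 0.4, a call that ended without double mated replicate 2, and sad and Hr3, named after their values were seen, by 0.33 and 0.29. The number that rose was 2 without double mated replicate 2 and 3 without virgin replicate 3. usp, the partner of the ecdysone receptor, named after its value was seen, fell by 0.2 on the log2 scale. Hr39, a nuclear receptor required for the spermathecal glands, fell by 0.36 by its brightest probe set, but its 4 probe sets ran from -0.47 to 0.53 with calls both ways. On leaving out 1 array in turn, the 2 that fell became 1 without double mated replicates 2 or 3 or virgin replicates 1, 2 or 3.

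Digestive genes moved in opposite directions. The maltases and amylases of the gut fell in 7 of 12 measured members and rose in none (0 at an unadjusted p under 0.05), with a median of -0.89, the lowest of the 40 lists. Mal-A7, a maltase, had 8.4, 8.89, 8.06 and 9.34 in the double mated arrays and 11.48, 10.76, 11.22 and 11.49 in the virgin arrays. All double mated arrays were more than 1 unit below the lowest virgin array, replicate 4 being the nearest, and the level was 0.169 times that of virgins (95% interval 0.116 to 0.246, adjusted p = 1.15e-05). tobi, an alpha-glucosidase controlled by insulin and adipokinetic hormone, had 9.58, 9.82, 8.75 and 10.01 in the double mated arrays and 11.9, 11.6, 11.82 and 12.08 in the virgin arrays (0.201 times the virgin level, adjusted p = 1.06e-05). Mal-A8 was at 0.286 times and Mal-B1 at 0.333 times the virgin level, both with the groups apart. Amyrel, an amylase-related gene, was at 0.513 times.

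Proteases of the midgut rose. Of 14 Jonah chymotrypsin-like proteases, 11 rose and none fell (0 at an unadjusted p under 0.05), with a median of 0.67. Jon99Fi had 12.63, 12.86, 12.48 and 12.2 in the double mated arrays and 11.31, 11.26, 10.55 and 10.96 in the virgin arrays (2.87-fold, adjusted p = 5.52e-05). The brighter Jon65Aiii, Jon65Aiv and yip7 rose 1.63-fold, 1.61-fold and 1.5-fold, and in all 4 genes the groups did not overlap. Of 10 trypsins 7 rose, zetaTry 1.95-fold, epsilonTry 1.65-fold and lambdaTry 1.56-fold. Try29F was the exception, at 5.93, 5.74, 5.32 and 5.42 in the double mated arrays and 8.29, 6.34, 7.87 and 7.56 in the virgin arrays (0.266 times, adjusted p = 0.000818). Virgin replicate 2 was more than 1 unit below the other virgin arrays and above all double mated arrays.

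Of 12 mannosidases, lysozymes and other gut enzymes 8 rose and 1 fell, with a median of 0.52. LManVI, a lysosomal alpha-mannosidase homolog, had 10.74, 11.59, 11.47 and 11.05 in the double mated arrays and 10.44, 10.18, 10.04 and 10.15 in the virgin arrays (2.01-fold, adjusted p = 0.000503), and LManII rose 1.61-fold and LysP, a lysozyme, 1.71-fold. The count of 8 was 5 without double mated replicate 3 or virgin replicate 3. Npc2a, a sterol carrier named after its value was seen, fell by 0.42 on the log2 scale.

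Secreted products of the sperm storage glands, the spermathecae and parovaria, included both an increase and a decrease of large size. CG17234, a serine protease gene of these glands, had 6.23, 7, 8.34 and 9.06 in the double mated arrays and 4.17, 5.03, 4.52 and 4.6 in the virgin arrays (8.43-fold, 95% interval 3.74 to 19, adjusted p = 0.000706). The double mated arrays spanned almost 3 units with replicate 4 at the top, and the lowest was more than 1 unit above the highest virgin array. Send2, a spermathecal endopeptidase, had 6.6, 6.9, 7.98 and 8.95 in the double mated arrays, again with replicate 4 highest, and 5.68, 5.98, 5.78 and 5.74 in the virgin arrays. Its paralog Send1 went the other way, at 6.52, 7.05, 8.11 and 7.49 in the double mated arrays and 8.9, 9.58, 9.51 and 8.93 in the virgin arrays (0.261 times the virgin level, adjusted p = 0.00018). Of the 10 measured members 5 rose and 1 fell, beside 15.4% higher and 20.1% lower among all genes. The 5 became 3 without double mated replicates 2 or 3 or virgin replicates 1, 3 or 4, and 6 without double mated replicate 4. The other called members were CG17239 at 0.74 and, named after their values were seen, Ser12 at 0.51 and CG9897 at 0.48.

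In the list of the sex peptide response and the oviduct, 4 of 13 rose and 1 fell. Among all genes 15.4% rose and 20.1% fell. dsx, the sex determination factor that marks the neurons and tissues of the response, had 8.58, 8.98, 8.95 and 8.65 in the double mated arrays and 7.57, 7.97, 7.58 and 7.9 in the virgin arrays (2.05-fold, adjusted p = 2.98e-05). This is its brightest probe set, and the mean of both was 0.63. Mmp2, the metalloproteinase that breaks down follicle cells at ovulation, rose 1.6-fold on its brightest probe set with no overlap, but its other probe set was at -0.09 and did not pass, and the mean of both was 0.29. hebe, named after its value was seen, rose by 0.4. SPR, the sex peptide receptor, rose by 0.46 on its brightest probe set (adjusted p = 0.00222), while its other probe set fell by 0.27 on the log2 scale, so the gene has no settled direction. Ilp7, an insulin-like peptide of neurons that innervate the oviduct, had 6.18, 5.71, 5.35 and 5.66 in the double mated arrays and 6.84, 6.85, 6.98 and 6.69 in the virgin arrays (0.462 times, adjusted p = 0.000169).

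Among insulin and adipokinetic hormone genes 4 of 11 rose and 2 fell, beside 15.4% higher and 20.1% lower among all genes. AkhR, the receptor through which adipokinetic hormone mobilizes fat, had 8.56, 8.74, 8.81 and 8.53 in the double mated arrays and 7.95, 7.98, 8.09 and 7.77 in the virgin arrays (1.64-fold, adjusted p = 3.99e-05). Its other probe set was at 0.07 and did not pass, and the mean of both was 0.39, against 0.71 on the brightest. ImpL2, which binds insulin-like peptides in the hemolymph, rose 1.6-fold, and, named after their values were seen, Akh by 0.45 and the insulin receptor InR by 0.3. Ilp8, a relaxin-like peptide that follicle cells of the adult ovary express, had 9.68, 9.55, 9.31 and 9.76 in the double mated arrays and 10.34, 10.61, 10.57 and 10.23 in the virgin arrays (0.552 times, adjusted p = 0.000101), and with Ilp7 made up those that fell.

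Of 16 genes of fat storage and lipogenesis 8 rose and 1 fell, with a median of 0.24. FASN2, a fatty acid synthase, rose 1.6-fold, AcCoAS, acetyl-CoA synthetase, 1.56-fold, Lpin, a phosphatidate phosphatase, 1.54-fold and Desat1, a fatty acid desaturase, 1.37-fold. For each of these the 4 double mated arrays were the 4 highest. Lsp2, a larval storage protein named after its value was seen, fell by 0.85 on the log2 scale, and a further member fell without double mated replicate 4.

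Genes known from muscle, eye and nervous system were measured in the same whole-fly RNA. Of 19 muscle genes 14 rose and none fell (0 at an unadjusted p under 0.05), with a median of 0.58. Act87E, an actin of muscle, had 11.83, 11.76, 11.86 and 11.86 in the double mated arrays and 10.96, 10.83, 10.59 and 10.85 in the virgin arrays (2.02-fold, adjusted p = 6.66e-06). Virgin replicates 2 and 3 had lower mean levels of the list, at 10.3 and 10.23, than virgin replicates 1 and 4, at 10.57 and 10.59, and all double mated arrays, at 10.86 to 11.03, lay above them. Of 11 phototransduction genes 8 rose, among them trp, a channel of the light response, by 0.57, and inaC, the eye's protein kinase C, by 0.53. The phosphatidylinositol transfer protein rdgB, named after its value was seen, fell by 0.38 on the log2 scale. Of 19 neuron and synapse genes 10 rose and 1 fell, with cpx, complexin, at 1.63-fold and Gad1, which makes GABA, at 1.57-fold. The value of cpx is that of its brightest probe set, the other was at -0.06 and did not pass, and the mean of both was 0.32, against 0.7. elav, a marker of all neurons, chosen after its value was seen, was at -0.03 and did not pass.

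Of 23 neuropeptide genes 8 rose and none fell (0 at an unadjusted p under 0.05). Among all genes 15.4% rose and 20.1% fell. AstC, allatostatin C, had 7.93, 8.13, 7.95 and 7.94 in the double mated arrays and 7.26, 7.35, 7.38 and 7.3 in the virgin arrays (1.59-fold, adjusted p = 1.06e-05), and Nplp1, sNPF and Ms, the myosuppressin gene, rose 1.58-fold, 1.5-fold and 1.3-fold. sNPF was dim, with means of 4.9 in the double mated and 4.32 in the virgin arrays. Without double mated replicate 4 another member fell. Of 11 clock genes 5 rose and 1 fell, beside the same shares of all genes. Cipc, whose product binds the Clock protein, had 7.21, 7.45, 7.81 and 7.26 in the double mated arrays and 5.64, 5.76, 5.26 and 6.01 in the virgin arrays (3.39-fold, adjusted p = 1.2e-05). vri and tim, which oscillate with the day, rose by 0.76 and 0.63, and cwo, a repressor in the clock, by 0.62. The value of tim is that of its brightest probe set. Its other probe set was at 0.29 and did not pass, and the mean of both was 0.46. Named after their values were seen, Pdp1 rose by 0.69 and cyc fell by 0.38 on the log2 scale. The hour of freezing is not given for each group in the sources used here, and its part in these values was not tested.

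Detoxification enzymes were counted by family. Of 81 cytochromes P450 20 rose and 11 fell, and the smallest p was that of Cyp4p3, which had 7.68, 7.63, 7.74 and 7.43 in the double mated arrays and 6.3, 6.89, 6.41 and 6.36 in the virgin arrays (2.19-fold, adjusted p = 1.2e-05). Of 69 glutathione and UDP sugar transferases 12 rose and 12 fell, GstD9 by 0.37 upward and GstE11, Ugt37B1 and GstT2 at -0.59, -0.52 and -0.46. With all arrays the transferase counts lie near the shares of all genes, 15.4% higher and 20.1% lower. The P450 counts, 20 higher and 11 lower of 81, are set beside the same shares. Transferases that rose numbered 7 without double mated replicate 2, and those that fell 7 without replicate 3. Without replicate 4 those that rose numbered 18, beside 17.4% of all genes. Of 47 odorant-binding proteins 11 rose and 2 fell, beside the same shares of all genes. Obp56a had 9.85, 9.85, 9.9 and 9.56 in the double mated arrays and 8.14, 8.4, 8.39 and 8.32 in the virgin arrays (2.78-fold, adjusted p = 5.91e-06), and Obp99b fell by 0.6 on the log2 scale.

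Among 16 heat shock genes 2 rose and 3 fell, near the shares of all genes. The small heat shock genes Hsp26 and Hsp27, which the ovary expresses without stress, had levels 0.582 and 0.608 times those of virgins. Hsp60A, a mitochondrial chaperonin, fell by 0.24 on the log2 scale. Hsp26 had 13.81, 13.44, 13.38 and 13.96 in the double mated arrays and 14.42, 14.36, 14.46 and 14.48 in the virgin arrays, with no overlap. stv, a cochaperone of muscle, rose 1.92-fold (adjusted p = 1.73e-05), and Hsc70-1, named after its value was seen, by 0.41. Those that rose numbered 1 without double mated replicates 2 or 3 or virgin replicates 2, 3 or 4. None of 4 metallothioneins passed the test, with 1 lower at an unadjusted p under 0.05. The medians of the germline, Imd, Toll, odorant-binding, heat shock, metallothionein, transferase, ribosomal, oxidative phosphorylation and male lists changed sign or reached 0 under at least 1 of the scalings, so no direction is drawn from them.

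**Figure D4:**
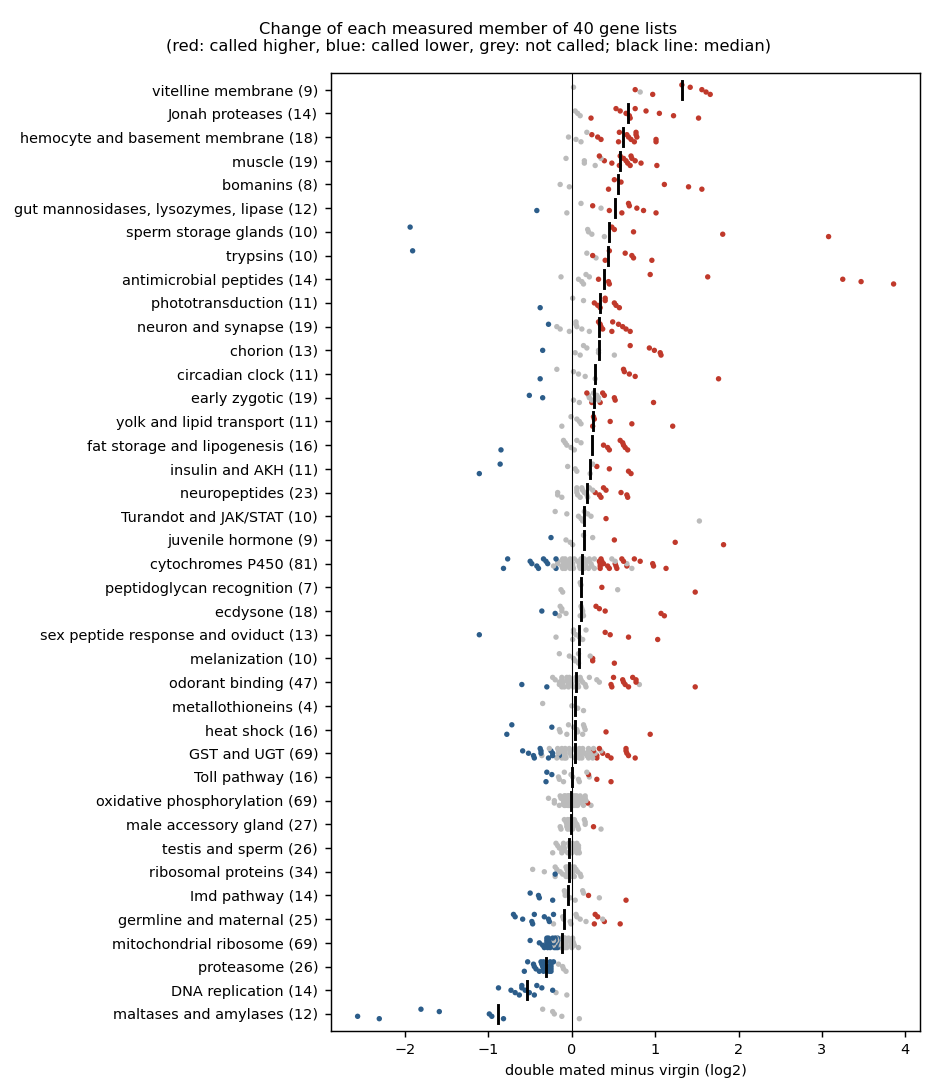
Change of every measured member of the 40 gene lists, double mated minus virgin (x axis, log2), with the number measured in brackets. Red members rose, blue members fell, grey members did not pass, and the black line is the list's median. Lists are ordered by their median, which runs from 1.32 in the vitelline membrane to -0.89 in the maltases and amylases.

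Several of the largest changes lay outside these lists. CG32751 had 7.43, 8.11, 8.42 and 6.88 in the double mated arrays and 5.59, 6.26, 5.26 and 4.82 in the virgin arrays (4.69-fold, adjusted p = 0.000541). Npc2e, a member of the family of NPC2-like sterol carriers, rose 3.86-fold, and vanin-like, a homolog of vertebrate pantetheinases, 3.68-fold. Cht9, a chitinase family gene, had 9.84, 9.76, 9.66 and 8.64 in the double mated arrays, replicate 4 being about 1 unit below the others, and 7.53, 7.8, 7.62 and 7.38 in the virgin arrays. Its change was 1.89, or 2.17 without that array. CG11912 and CG8785 rose 3.86-fold and 3.81-fold with no overlap. Among the decreases, CG34040 had 5.57, 5.47, 5.06 and 5.25 in the double mated arrays and 7.74, 6.2, 7.25 and 7.72 in the virgin arrays (0.271 times, adjusted p = 9e-05). CG12998 had 7.55, 7.84, 8.04 and 7.31 in the double mated arrays and 9.35, 9.49, 9.19 and 9.4 in the virgin arrays (0.313 times, adjusted p = 4.72e-06). CG8093, CG10013, CG15263 and tut were at 0.302, 0.343, 0.378 and 0.405 times their virgin levels, each with the 4 double mated arrays below the 4 virgin arrays. CG15263 was dim in the double mated arrays, with a mean of 4.44.

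The change from virgin was set against that after 1 mating by the test of double mated minus single mated, in the same fit. It called 560 of 11982 genes (4.67%) higher and 247 (2.06%) lower in double mated females. Single mated minus virgin called 675 genes (5.63%) higher and 855 (7.14%) lower. The comparisons share arrays, so each is given by its own values. Double mated females first mated the day before their last mating, while single mated females were frozen 6 hours after their only mating. The number of matings and the time since the first mating thus differ together and cannot be told apart. Of the 4253 genes that changed between double mated and virgin females, 682 (16%) also differed between double and single mated females in the same direction, 474 upward and 208 downward. Without double mated replicate 4 those numbers were 866 and 710. For 10 (0.235%) the difference ran the other way.

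Immune effectors were among the genes that were higher after 2 matings than after 1. Mtk was 2.88 log2 units higher in double than in single mated females (adjusted p = 0.0191) and 0.98 higher in single mated than in virgin females, which did not pass (adjusted p = 0.381). DptB gave 2.43 (adjusted p = 0.00863) and 0.82 (adjusted p = 0.297) in these comparisons, and Def 1.55 (adjusted p = 3.52e-06) and 0.08 (adjusted p = 0.696). Listericin differed from these in that it passed in both, at 1.37 (adjusted p = 2.61e-05) and 2.1 (adjusted p = 4.51e-07). Of the 14 antimicrobial peptides 5 were higher in double than in single mated females, and 1 was higher in single mated than in virgin females. Of the 8 bomanins 7, all but BomS6, were higher in double than in single mated females. The 3 bomanins that were lower in single mated than in virgin females were BomT2, BomBc2 and BomS6, at -0.42, -0.99 and -0.65. BomT2 was 1.01 higher in double than in single mated females (adjusted p = 0.000128) and 0.59 higher in double mated than in virgin females, so its single mated mean was the lowest of the 3 groups. That also held for BomS2, BomBc2 and BomS6 and, named after their values were seen, BomS4 and BomT3. The list's median for single mated minus virgin was -0.38. BomBc2 was at -0.03 for double mated minus virgin, so its change from virgin was smaller after 2 matings than after 1.

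Genes of the ovary and of lipid uptake were in this set too. Of the 9 vitelline membrane genes 6 were higher in double than in single mated females, with ndl at 0.85 (adjusted p = 9.34e-05), psd at 1.02, Vm32E at 1.08 and dec at 0.89. LpR2 had 8.99, 9.08, 9.04 and 8.83 in the double mated arrays and 8.33, 8.26, 8.32 and 8.2 in the single mated arrays, and its change after 1 mating was 0.01 (adjusted p = 0.97). AkhR was 0.7 higher in double than in single mated females, beside 0.01 for single mated minus virgin, and tim 0.63, beside 0. AkhR and tim are given here by their brightest probe set. br was higher in double than in single mated females by 0.65 (adjusted p = 0.00167), Obp56a by 1.02 and CG14191, a gene outside the lists, by 0.91.

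Among the genes that fell, CG12998 differed by -1.47 between double and single mated females (adjusted p = 3.3e-05), with a change after 1 mating of -0.21 that did not pass (adjusted p = 0.35). CG10013 gave -1.23 (adjusted p = 0.00301) and -0.31 (adjusted p = 0.357). Hat1, a histone acetyltransferase, Nnf1b, of the kinetochore, and msd1, of the mitotic spindle, were lower in double than in single mated females at -0.63, -0.42 and -0.47. The value of Hat1 is that of its brightest probe set, which was at -0.97 for double mated minus virgin females, while its other probe set was at -0.12 and did not pass. Of the 14 replication genes PCNA, Orc4, Orc5 and Mcm3, 4 in all, were lower in double than in single mated females, or 12 without double mated replicate 4. Mal-A7 and Amyrel were the 2 of 12 maltases and amylases that fell further, at -0.93 (adjusted p = 0.0476) and -0.49. For tobi the difference of double from single mated females was -0.54 with an adjusted p of 0.175, and for Send1 it was -0.04 with an adjusted p of 0.961.

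The 10 genes that ran the other way were nearer to virgin after 2 matings than after 1. jhamt had 6.66, 6.81, 6.76 and 6.07 in the double mated arrays and 7.74, 7.14, 7.92 and 7.84 in the single mated arrays, a difference of -1.08 (adjusted p = 0.00268), and no array of one group reached the other. Jhe had 5.57, 5.5, 5.26 and 5.5 in the double mated arrays and 6.57, 6.24, 6.44 and 6.24 in the single mated arrays, a difference of -0.91 (adjusted p = 0.00049). The others were named by this count, after their values were seen. MFS1, CG33510, CG4563, CG4830, CG5191 and Cyp313a4 were above virgin after both treatments and lower in double than in single mated females, with differences of -0.93, -1.11, -1, -1.06, -0.63 and -0.56. Cyp28d1 and Ugt304A1 were below virgin after both and higher in double than in single mated females, at 0.34 and 0.33. Kr-h1, which the hormone made through jhamt induces, differed between double and single mated females by 0.36 with an adjusted p of 0.11, which did not pass, and by 0.49 without double mated replicate 4, which did (adjusted p = 0.0103).

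**Figure D5:**
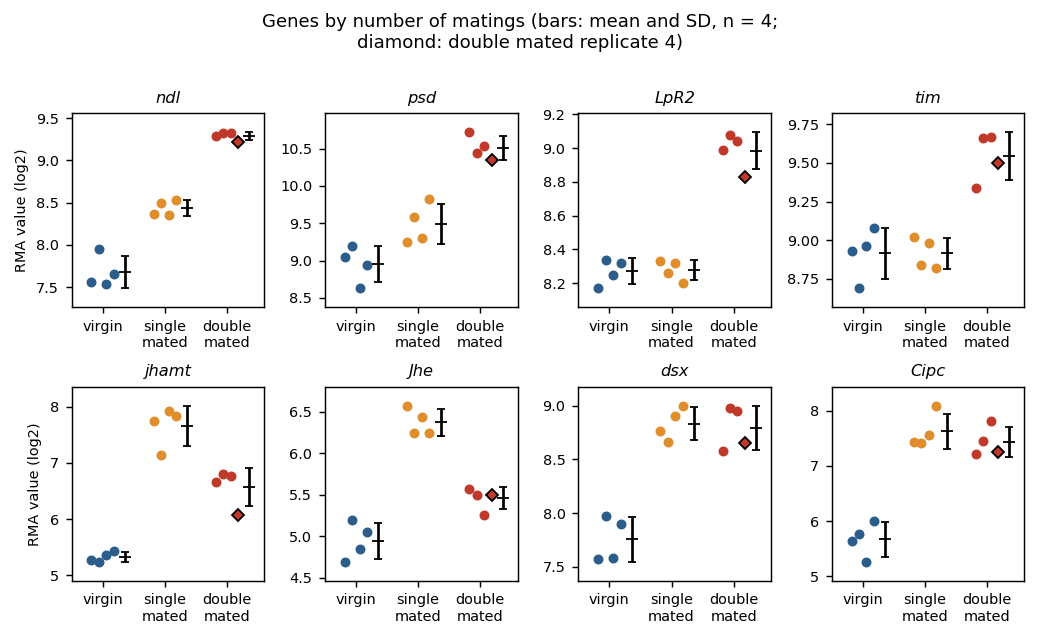
RMA values (y axes, log2) of 8 genes in virgin, single mated and double mated females, each gene by its brightest probe set. Each point is 1 array, with the mean and SD beside each group. ndl and psd are higher in double than in single mated females and lowest in virgins, LpR2 and tim are higher in double mated females than in the other groups, jhamt and Jhe are highest after 1 mating, and dsx and Cipc are higher after either treatment than in virgins.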

How the data were processed

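Total RNA of 12 pools of whole females, 8 flies each, was measured on Affymetrix Drosophila Genome 2.0 arrays, 4 each of double mated, single mated and virgin females. The deposited values are log2 probe set summaries made with RMA and the affy package, per the submitters' processing notes, whose versions are not given in the sources used here. RMA includes quantile normalization, so array-wide shifts are removed; array medians ran from 5.97 to 6.07. Hybridization signals have no depth in reads; with 4 arrays a group, their number sets the precision.

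Of 18952 probe sets, 183 Affymetrix controls were left out and 18769 tested, with no filter. A single symbol was annotated for 13646 of them (13543 matched to a RefSeq gene), several for 402 and none for 4721, which were counted but not named; 11982 genes were each represented by their brightest probe set. All 12 arrays were fitted with limma 3.58.1 (lmFit, eBayes; R 4.3.3), with p-values adjusted by Benjamini-Hochberg over all probe sets and called at 0.05. Data were simulated for double mated minus virgin with 200 of 18769 probe sets shifted. Shifts of 0.25, 0.5 and 1 log2 units were recovered at 0%, 81% and 99%, with 0, 9 and 8 false calls. In the real data 28.1% of probe sets changed, so the adjusted threshold was easier to pass than in the simulation. Changes under 0.25 were called there, such as COX7B at 0.19, so these percentages do not carry over.

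The members and the 40 gene lists were chosen with earlier results of these data known, and lists got no test. List membership was later corrected for mistaken gene identity, for example by leaving out cyclophilins named like cytochromes P450. Genes were named by a rule: the 12 largest changes in each direction with the groups apart, up to 4 called members of each list by smallest p, the 10 largest in each direction that also differed from single mated females, and 22 chosen genes, in all 162. Alternatives covered leaving out each double mated or virgin array, the replicate number as a block, the arrays in the fit, scaling and a dim-probe filter. They also covered array weights, a stricter threshold, another variance model and the mean over a gene's probe sets. No single mated array was left out. The labels give no hybridization batch.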

Additional observations from a re-analysis of the deposited data

Results flagged for a closer look

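Among the named genes, 324 groups of 4 arrays were examined, and in 26 of them 1 array lay further from the rest than Dixon's 95% limit; chance gives about 1 in 20. Double mated replicate 4 was that array in 9 groups. It was low for Cht9 at 8.64, Def at 8.98, Jon65Aiv at 14.61, LanB1 at 8.77, vri at 8.68, Obp56a at 9.56 and Prosalpha3 at 12.22, and high for spz at 10.33 and RpS5b at 14.28. Without it Cht9 was 2.17 above virgin, against 1.89 with it.

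In 5 groups another double mated array was apart. Replicate 1 was high for Vm32E at 12.29 and mRpL3 at 9.9 and low for Ms at 7.67, replicate 2 was high for AstC at 8.13, and replicate 3 was high for yip7 at 14.61.

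A virgin array was apart in 12 groups. Replicate 2 was low for CG10013 at 6.84, Pxt at 12.48 and hry at 9.66 and high for LanB2 at 8.76 and Mmp2 at 6.35. Replicate 4 was high for SPR at 7.52, inaC at 7.81 and Galphaq at 8.12. Replicate 1 was high for Hr39 at 9.6 and low for Rpn12 at 12.48, and replicate 3 was low for dec at 10.65 and high for Ugt37B1 at 6.85.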

How the results depend on the processing

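Of the 158 named genes that changed, 146 kept their direction and their call under each of 18 alternatives (17 for bnk, CG15263 and sNPF, which the filter on dim probe sets left out), and none reversed. COX7B, Cp7Fc, Fpps, Hayan, Hr39, Muc4B, PGRP-LB, phtm, RpS5b, Sems, SPR and yellow-g2 lost the call under at least 1. The cause was not tested. Yp1 passed with a trended, robust variance model (adjusted p = 0.0382) and, with Yp3, after removal of the trend on gene span. The alternatives used the mean over a gene's probe sets, not each probe set alone. Of 16 named genes with several probe sets, 10 had an uncalled probe set, and 2, SPR and Hr39, had probe sets called both ways. The number of probe sets that changed between double mated and virgin females was 4333 to 5975 on leaving out 1 array, lowest without virgin replicate 3 and highest without double mated replicate 4, against 5268. It was 4889 with only the double mated and virgin arrays, 5374 among 11949 probe sets left by a filter on dim ones, 5288 with the trended model, 6349 with array weights, which gave double mated replicate 4 a weight of 0.294, and 5193 after removal of the trend on gene span, an alternative chosen after seeing the data. At an adjusted p under 0.01 it was 3535, 1941 of them lower. With each array centred on its median 35 probe sets fell by more than 2-fold, against 22, and the median of all probe sets was -0.087, against -0.019. Double mated minus single mated was less stable: its 992 probe sets were 613 to 2171 on leaving out 1 double mated or virgin array, 613 without double mated replicate 2, 648 without replicate 3 and 2171 without replicate 4, 2195 with array weights and 307 at an adjusted p under 0.01. The replicate numbers do not pair the arrays: the deviations of same-numbered double mated and virgin arrays correlated at 0.06, 0.1, -0.08 and 0.14, and the arrays did not each correlate best with their own number. With the replicate block 4830 probe sets changed, and 661 for double mated minus single mated. The planned use of coding length was not run, since no coding lengths were given. Dim transcripts, such as those of the male tract, lie near background, which limits what can be seen of them.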
